A study of Mus musculus with 12 samples.

Results

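The interferon response genes described here are 35 mouse genes that interferons switch on or that carry the interferon signal, taken by symbol from a table of 24421 gene symbols. All 35 symbols were found, and 34 had enough counts to be tested. Only Cxcl11 did not, at 0 to 0.962 CPM, counts scaled to the depth of each library, over the 12 libraries. The libraries hold ribosome-bound mRNA of subcutaneous melanomas of the lines B16F10 (n = 7) and B16F0 (n = 5), which the labels call highly and poorly metastatic. Both lines were grown for 12 days in C57BL/6 hosts of the genotype Rpl22fl/flHA;Cdh5(PAC)-CreERT2, all given tamoxifen. In these hosts a tagged ribosomal protein is made in cells in which the Cdh5 promoter drives the recombinase, which are mainly endothelial cells, while the injected melanoma cells carry no tag. The labels give neither the hosts' age and sex nor whether each library came from its own animal, and some library names hold an unexplained F or M, so the tests set differences against the spread of these libraries alone, which may be partly technical.

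Type I interferons act through the receptor pair Ifnar1 and Ifnar2, and interferon gamma through Ifngr1 and Ifngr2. Both receptors signal through JAK kinases. With type I interferon, Stat2 and Irf9 enter a complex that binds the interferon-stimulated response element (ISRE). Interferon gamma acts through the gamma-activated site (GAS) and raises Irf1, which in turn acts on guanylate-binding proteins, immunity-related GTPases and the chemokines Cxcl9 and Cxcl10. In tumour vessels, endothelial cells respond to both kinds of interferon, and the chemokines of this program draw T cells that carry the receptor Cxcr3.

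Gene counts summed to between 5322510 and 20569200 per library, and both tumour lines were present on each of the 3 sequencing lanes. All 20 markers of a pan-endothelial list were tested, with summed levels of 770 to 5714 CPM, but 19 melanocytic markers summed to 12032 to 25088 CPM in the same libraries, so tumour cell RNA was abundant in every one. The 16 leukocyte markers, mostly myeloid, summed to 28.7 to 228 CPM. In bulk libraries fewer cells of a type and less RNA per cell cannot be told apart. Genes of silent odorant, pheromone and taste receptors, a measure of background reads, gave a total of 807 CPM in B16F10 replicate 1, of 670 CPM in replicate 2 and of 10.4 to 307 CPM in the rest. The precursor ribosomal RNA Rn45s took 31.4% of counts in B16F10 replicate 5 and 8.91% in B16F0 replicate 5.

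The promoters were searched for the letters of both elements. RefSeq promoter windows (GRCm38.p6, 250 bases before to 50 after a start) held 24 of the 35 genes. The ISRE core, searched on both strands as GAAA, any 2 bases and GAAA, occurred in 14 of these 24 (58.3%), against 3.99% of 27025 genes with a window. The GAS letters, TTC, any 3 bases and GAA on both strands, occurred in 8 of 24 (33.3%), against 9.55%, and in Bst2 the GAS match overlapped an ISRE match. A match is a description of letters and not of binding. The 6 stretches below belong to genes with the smallest p by tumour line or the steepest or lowest slopes on cell content in the results, and the capitals mark the ISRE and GAS matches. Each is given 5′ to 3′ on the strand of its gene.
Gbp2, chr3:142620574-142620628, plus strand: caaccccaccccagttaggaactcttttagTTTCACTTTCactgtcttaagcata
Gbp3, chr3:142559969-142560029, plus strand: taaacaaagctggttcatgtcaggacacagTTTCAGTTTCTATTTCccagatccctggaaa
Gbp5, chr3:142496684-142496905, plus strand: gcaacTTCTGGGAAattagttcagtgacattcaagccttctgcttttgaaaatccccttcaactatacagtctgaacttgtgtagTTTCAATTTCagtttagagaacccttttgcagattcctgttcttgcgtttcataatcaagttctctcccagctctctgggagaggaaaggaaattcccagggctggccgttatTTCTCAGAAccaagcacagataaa
Oas1a, chr5:120907526-120907653, minus strand: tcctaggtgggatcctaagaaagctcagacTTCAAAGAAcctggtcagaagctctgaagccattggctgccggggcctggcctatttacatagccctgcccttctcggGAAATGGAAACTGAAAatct
Rsad2, chr12:26456548-26456602, minus strand: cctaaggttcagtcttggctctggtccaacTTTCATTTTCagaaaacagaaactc
Cxcl10, chr5:92349078-92349132, minus strand: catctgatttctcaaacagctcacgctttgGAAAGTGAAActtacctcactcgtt
Gbp5 and Oas1a hold both kinds of letters, and the other 4 stretches hold the ISRE core alone. The windows of Cxcl9, Ifi44, Oasl2 and Irf9 held neither.

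No interferon response gene passed the test between the tumour lines in either direction. By edgeR's quasi-likelihood test with a false discovery rate of 0.05 over all 13534 tested genes, 0 of 34 were called higher in B16F10, where 1.3% of all genes were called, and 0 of 34 were called lower, where 1.47% were (2.77% in either direction). The smallest adjusted p was 0.227. DESeq2 and limma-voom also called 0 of 34 at a false discovery rate of 0.05. At an unadjusted p under 0.05, edgeR placed Gbp2 and Cxcl9 higher and Irf9 and Ifi27 lower in B16F10. At that level 7.13% of all tested genes were higher and 7.71% lower. For no gene of the 34 were the libraries of one line all above those of the other, against 1.27% of all genes with B16F10 wholly higher and 1.46% with B16F10 wholly lower. The fold change was above 0 for 23 of the 34 genes, with a median log2 fold change (B16F10 over B16F0) of 0.27 against 0.02 over all tested genes. That median was -0.12 without B16F10 replicate 6, with 15 of 34 genes above 0. It was also below 0 with the melanocytic score as a covariate, at -0.16. The melanocytic score, the mean log2 CPM of the 19 markers, was 8.35 ± 0.25 in B16F10 and 8.66 ± 0.23 in B16F0 (SD, n = 7 and 5, exact permutation p = 0.0593, two-sided, adjusted over 6 cell scores 0.126), and its part in the fold changes was not tested beyond that covariate.

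The direction also differed by sequencing lane. On lane 1, with 2 libraries of each line, 28 of 34 genes had the lower mean log2 CPM in B16F10, with a median difference of -0.38. On lane 6, with 3 B16F10 and 2 B16F0 libraries, 26 of 34 had the higher mean in B16F10, with a median difference of 0.33. On lane 2, with 2 B16F10 libraries and 1 of B16F0, 19 were higher and 15 lower. Only 9 genes had the same direction on all 3 lanes, with Gbp2, Igtp, Cxcl9 and Zbp1 higher and Ifit2, Oas1a, Usp18, Irf9 and Ifi27 lower in B16F10. The same share over all tested genes was not measured, so the 9 cannot be called more consistent than other genes.

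**Figure D1:**
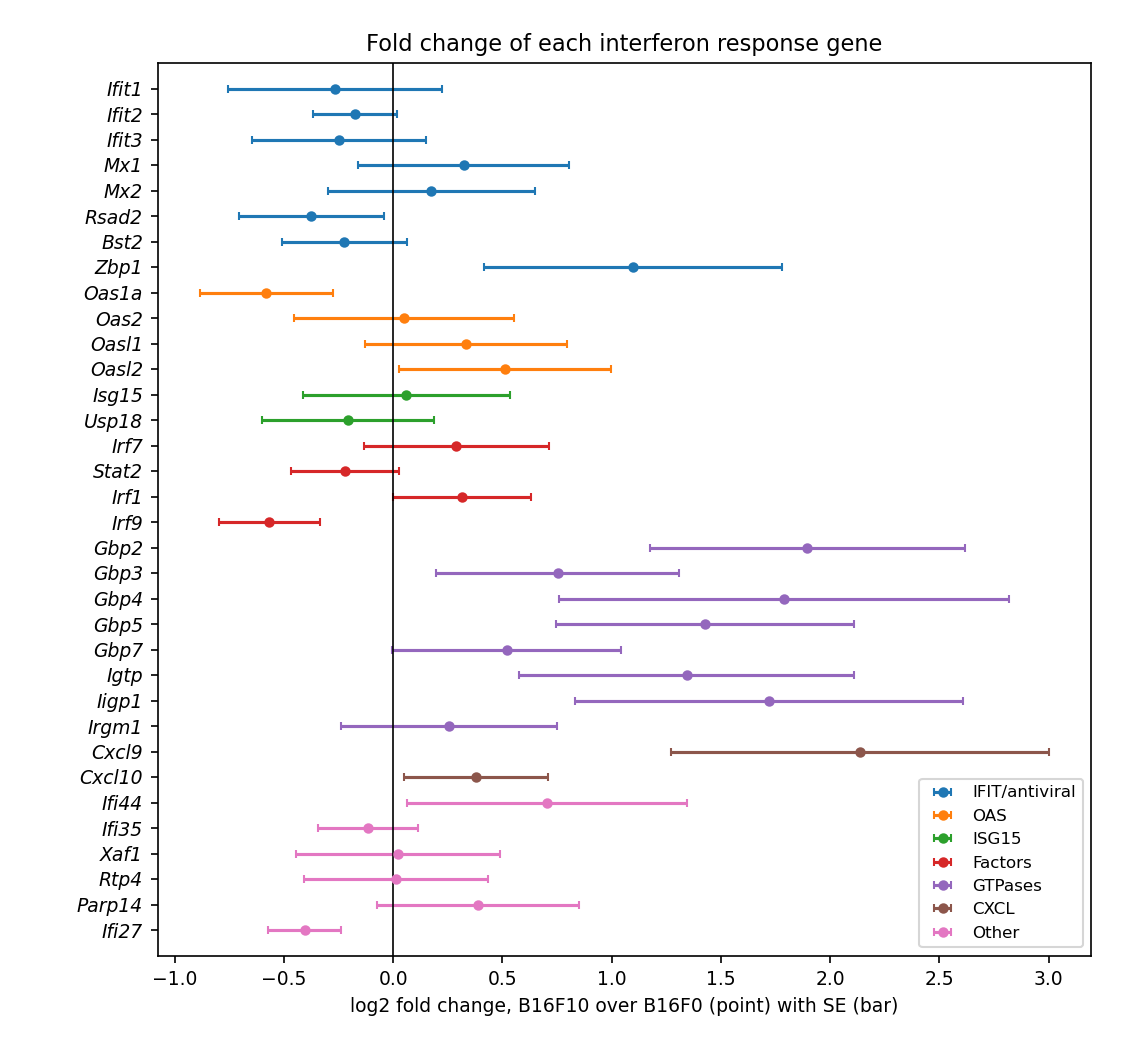
Log2 fold change of each of the 34 tested genes, B16F10 over B16F0 (horizontal axis; points, with bars of 1 standard error), coloured by role. The 8 GTPases and Cxcl9 lie to the right of 0, Irf9, Ifi27 and Oas1a to the left, and no gene passed a false discovery rate of 0.05.

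Of the 4 transcription factors among the genes, Irf9 had the smallest p. Irf9, the DNA-binding part of the type I complex (chromosome 14, 55603571 to 55610030, GRCm38), measured 26.4, 31.5, 36.9, 27.9 and 28.2 CPM in B16F0 replicates 1 to 5. In B16F10 its lowest, median and highest values were 12.4, 22.3 and 28.8 CPM. The 3 lowest libraries, at 12.4 to 13.9 CPM, were all B16F10, but B16F10 replicate 6 at 28.8 CPM lay inside the B16F0 range. The log2 fold change was -0.57 with a standard error of 0.23 (adjusted p = 0.262, edgeR), and the lane differences were -0.96, -0.58 and -0.36 on lanes 1, 2 and 6. Exons of Rnf31 on the same strand overlap Irf9, so some reads cannot be assigned to one of them with certainty. Stat2, the partner of Irf9, had a log2 fold change of -0.22, Irf1, the interferon gamma factor, 0.31, and Irf7, which amplifies type I interferon production, 0.29, all with adjusted p of at least 0.713.

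The 8 IFIT and antiviral effectors, which bind viral RNA or block viral entry, replication and release, had no called difference between the lines. Their standard errors ran from 0.19 for Ifit2 to 0.68 for Zbp1, so the test does not show that the lines were alike. Their log2 fold changes ran from -0.38 to 1.10 with a median of -0.20, and 3 of 8 were above 0. Ifit2, which binds RNA at ribosomes, was the most abundant of them, with 49.4, 65.5, 85.0, 93.0 and 97.1 CPM in the B16F0 libraries in ascending order and a lowest, median and highest value of 36.1, 71.6 and 88.0 CPM in B16F10. The groups overlapped almost fully, with a log2 fold change of -0.18 and a standard error of 0.19. Rsad2, or viperin, which makes a chain-terminating nucleotide, ranged from 41.8 to 90.5 CPM in B16F0 and from 24.5 to 101 CPM in B16F10. Bst2, or tetherin, which holds budding virions on the cell surface, had the highest level per length of all 35 genes, at 29.7 CPM per kilobase of exon. Zbp1, a sensor of Z-form nucleic acid, was the only one of the 8 with a log2 fold change above 1, at 1.10 with a standard error of 0.68, on levels of 0.451 to 9.17 CPM. Mx1 and Mx2, dynamin-like GTPases that block viral replication, had log2 fold changes of 0.32 and 0.17. GENCODE M21 lists Mx2 and Cxcl11 as polymorphic pseudogenes in the reference strain, which is also the host strain.

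The OAS genes make or resemble enzymes that answer double-stranded RNA with a second messenger for RNase L. Oas1a, one of the active enzymes, measured 6.69, 8.10, 10.1, 3.89 and 3.46 CPM in B16F0 replicates 1 to 5 and had a lowest, median and highest value of 1.29, 4.86 and 5.32 CPM in B16F10. All B16F10 libraries lay below the 3 highest of B16F0, yet above 3.46 CPM in 4 of 7 cases, so that the groups overlapped. Its log2 fold change was -0.58 with a standard error of 0.30 (adjusted p = 0.408, edgeR). Oas2, Oasl1 and Oasl2 had log2 fold changes of 0.05, 0.33 and 0.51. In the ISG15 system, which tags proteins with a ubiquitin-like modifier, Isg15 itself had a log2 fold change of 0.06 and the protease Usp18, which removes the tag and damps the type I receptor, -0.21. Usp18 measured 1.82 to 10.1 CPM in B16F10 and 4.51 to 12.6 CPM in B16F0.

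The 8 interferon-inducible GTPases, which coat and break pathogen vacuoles, had the higher fitted mean in B16F10 in 8 of 8 cases, with log2 fold changes of 0.26 to 1.90 and a median of 1.39, but none passed the test. Gbp2 (chromosome 3, 142620602 to 142638008) measured 8.10, 11.6, 18.1, 2.09 and 3.67 CPM in B16F0 replicates 1 to 5. In B16F10 replicates 1 to 7 it measured 43.8, 10.4, 9.44, 37.9, 16.1, 59.8 and 4.47 CPM. The B16F10 libraries were far from each other: replicates 1, 4 and 6 lay above all B16F0 libraries, and the other 4 lay inside the B16F0 range. The log2 fold change was 1.90 with a standard error of 0.72 (adjusted p = 0.227, edgeR). Gbp5, which promotes inflammasome assembly, had a lowest, median and highest value of 0.787, 3.24 and 8.18 CPM in B16F10 and 2.07, 2.42, 2.56, 0.338 and 0.838 CPM in B16F0 replicates 1 to 5, with a log2 fold change of 1.43 and a standard error of 0.68 (adjusted p = 0.359, edgeR). Irgm1, a regulator of the other immunity-related GTPases and the most abundant gene of the group, ran from 13.9 to 103 CPM in B16F10 and from 25.1 to 52.3 CPM in B16F0, with the smallest fold change of the 8. Gbp4, Iigp1 and Igtp had log2 fold changes of 1.79, 1.72 and 1.34, and Gbp3 and Gbp7 of 0.75 and 0.52. Gbp4 shares exonic sequence with Gbp8 and Gbp9, and Igtp with Irgm2, on the same strand, so these counts may be split between neighbours.

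The size of the GTPase difference depended on 1 library. Without B16F10 replicate 6 the median log2 fold change of the 8 was 0.52, with 6 of 8 above 0. On lane 1 the B16F10 mean was lower for 6 of 8, on lane 2 it was higher for 7 of 8, and on lane 6 for 8 of 8. Markers of T and NK cells, which make interferon gamma, also had the higher mean score in B16F10, at very low levels. The 14 markers in the table summed to 5.21 to 17.96 CPM in B16F10 and 1.69 to 12.3 CPM in B16F0, and 11 of them, the T cell receptor subunits Cd3e, Cd3d and Cd3g included, had no count in at least 1 library. The highest sum came from B16F10 replicate 1, which also held the most background reads, at 807 CPM. The second highest, in B16F0 replicate 2, came with 27.5 CPM of background reads. The part of background reads in these sums was not tested. The mean CPM was higher in B16F10 for 10 of the 14 and lower for Cd3e, Cd3g, Cd4 and Cd2. Only Cd8a and Lck could be tested. Their score was 0.99 higher on the log2 scale in B16F10 (exact permutation p = 0.0227, two-sided, adjusted over 6 scores 0.126, and 0.0333 within lanes). The dendritic cell score was 0.62 higher (exact permutation p = 0.0631, adjusted 0.126) and the fibroblast and mural score 0.87 higher (exact permutation p = 0.253, adjusted 0.379). Whether these cells account for the GTPase values was not tested.

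The chemokines that attract Cxcr3-bearing T cells differed from each other. Cxcl9 (chromosome 5, 92321347 to 92328079), which depends mainly on interferon gamma, measured 3.81, 2.24, 11.2, 1.24 and 1.99 CPM in B16F0 replicates 1 to 5 and 14.3, 4.20, 2.84, 30.8, 9.50, 47.0 and 2.43 CPM in B16F10 replicates 1 to 7. Replicates 1, 4 and 6 of B16F10 were again above every B16F0 library, and replicates 2, 3, 5 and 7 were not. The log2 fold change was 2.14 with a standard error of 0.86 (adjusted p = 0.261, edgeR), the highest of the 34 genes. Cxcl10, which type I interferon and other signals also raise, measured 16.3, 11.7, 10.7, 20.5 and 18.1 CPM in B16F0 and had a lowest, median and highest value of 9.04, 17.7 and 48.1 CPM in B16F10. Only B16F10 replicate 6 stood above the rest, and the log2 fold change was 0.38 with a standard error of 0.33. Cxcl10 overlaps exons of Art3 on the opposite strand.

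Among the 6 other induced genes, Ifi27, a mitochondrial and nuclear membrane protein, had the narrowest spread of all 34. It measured 46.2, 50.3, 41.5, 38.3 and 47.5 CPM in B16F0 and had a lowest, median and highest value of 26.3, 30.2 and 47.5 CPM in B16F10. Of the 7 B16F10 libraries, 5, at 26.3 to 33.2 CPM, lay below all B16F0 libraries, while replicates 1 and 6 lay among them. The log2 fold change was -0.40 with a standard error of 0.17 (adjusted p = 0.274, edgeR), and the lane differences ran from -0.28 to -0.55. Parp14, an ADP-ribosyltransferase and the most abundant of these 6, ranged from 16.4 to 98.0 CPM in B16F10 and from 22.9 to 68.7 CPM in B16F0. The remaining log2 fold changes were 0.70 for Ifi44, 0.02 for Xaf1, 0.01 for Rtp4 and -0.12 for Ifi35.

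The levels of these genes varied widely between libraries of one line. Their median standard deviation of log2 CPM within the lines was 0.83, against 0.43 over all tested genes, and 31 of 34 lay above that figure. The highest library exceeded the lowest by a median of 6.95-fold for these genes and 23.0-fold for the GTPases, against 2.74-fold over all genes. This median was 8.87-fold for the leukocyte, 11.0-fold for the pan-endothelial and 21.8-fold for the fibroblast and mural markers. It was 2.47-fold for the melanocytic markers. A wide spread was thus not particular to the interferon genes. B16F10 replicate 6 held the highest level of 21 of the 34 genes and the highest or second highest of 28. B16F10 replicate 7, sequenced on the same lane, held the lowest of 10. Every one of the 34 was higher in replicate 6 than in replicate 7, with a median ratio of 4.69, a smallest of 1.59 for Ifi27 and a largest of 26.2 for Gbp4, where the median ratio over all genes was 0.997. In B16F0, replicate 3 held the highest level within the line for 27 of 34 genes and replicate 4 the lowest for 20. The mean log2 CPM of the 34 genes was 4.54 in B16F10 replicate 6 and 2.29 in replicate 7.

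**Figure D2:**
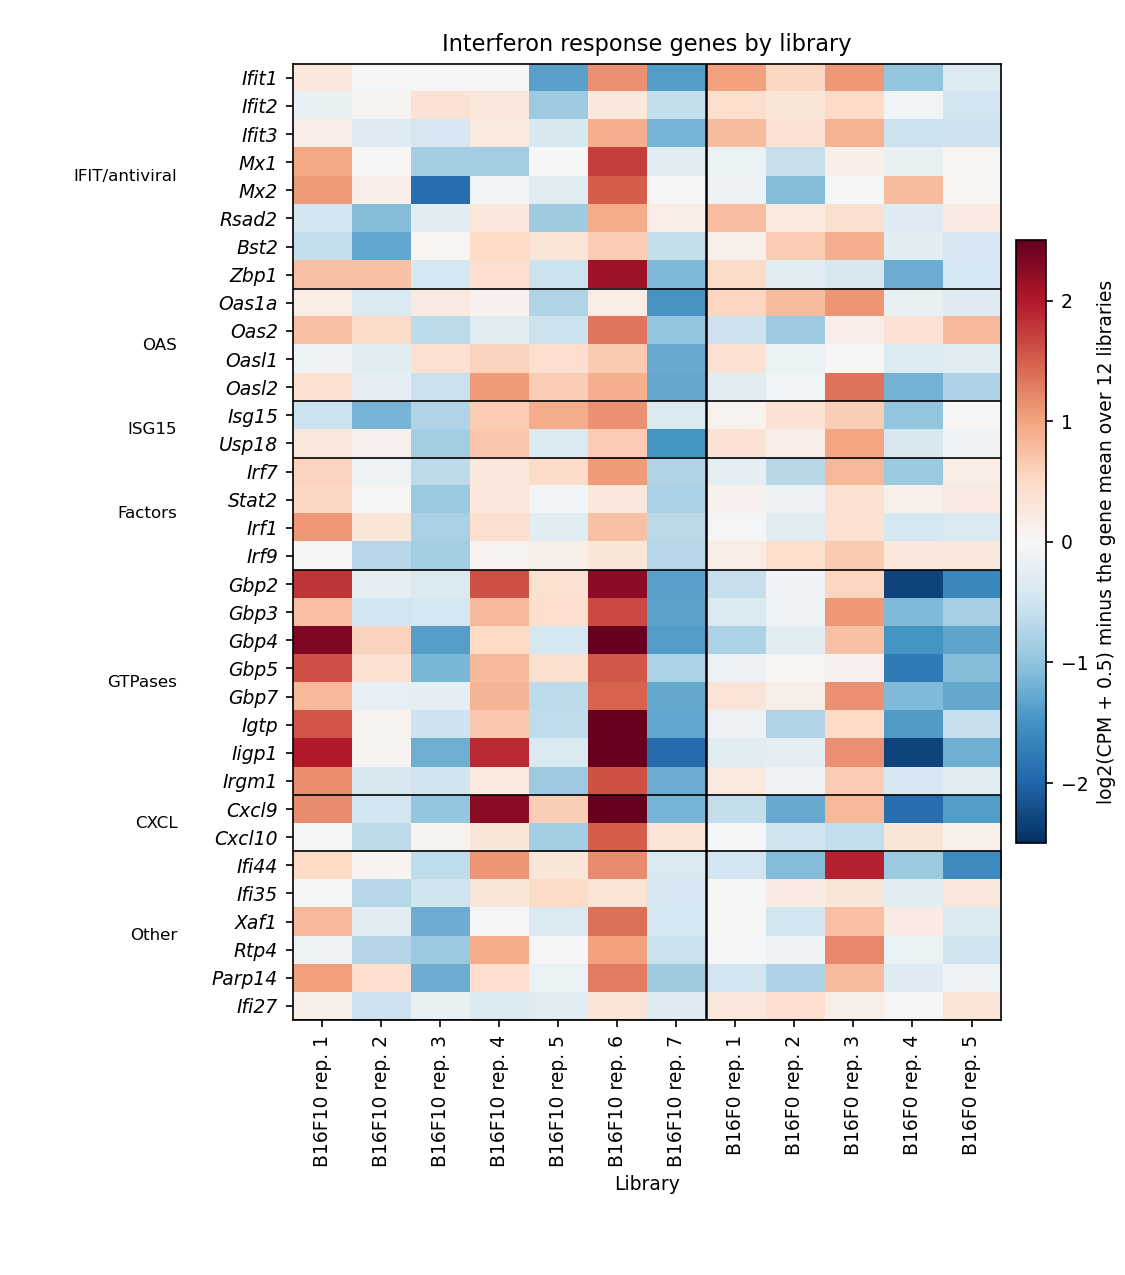
Level of each of the 34 genes (rows, grouped by role) in each library (columns), as log2(CPM + 0.5) minus the gene's mean over the 12 libraries, with red above and blue below that mean and colours ending at 2.5 in either direction. B16F10 replicate 6 is red in nearly every row and replicate 7 is mostly blue, and the 5 widest ratios of replicate 6 over replicate 7 are those of Gbp4, Iigp1, Igtp, Cxcl9 and Zbp1.

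Other measures of the same libraries stood as follows. The leukocyte markers of B16F10 replicate 6 summed to 103 CPM and those of replicate 7 to 28.7 CPM, while its T and NK cell markers summed to 7.99 CPM and those of replicate 7 to 5.84 CPM. The endothelial score was 4.79 in replicate 6 and 4.40 in replicate 7, and the melanocytic score 8.38 and 8.39. Background reads were lower in replicate 6, at 79.0 CPM against 130 CPM. The part of any of these in the levels was not tested.

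The next question was whether the genes follow endothelial content. The endothelial score of a library, averaging the log2 CPM of all 20 pan-endothelial genes, was 5.44 ± 1.03 in B16F10 and 5.48 ± 1.09 in B16F0 (SD, n = 7 and 5, exact permutation p = 0.960, two-sided), and no interferon gene is in the list. At the top, 3 libraries stood apart, namely B16F10 replicates 4 and 5 at 7.17 and 6.61 and B16F0 replicate 3 at 7.30, while the other 9 lay between 4.37 and 5.38. B16F10 replicate 4 and B16F0 replicate 3 carry the same leading number in their library names, whose meaning the labels do not give. A slope on this score was fitted for every gene by limma, adjusted for lane and tumour line, and genes are called following where it exceeded 0.5 at an adjusted p below 0.05. A slope of 1 means that the gene doubles when the endothelial genes double. By this rule 0 of 34 interferon genes followed, against 3.6% of all tested genes, and 0 fell with it, against 0.118%. An unadjusted p under 0.05 with a slope above 0 was reached by 5 of 34, namely Oasl2, Ifi44, Rtp4, Irf9 and Cxcl9, and by 1425 of the 13534 genes. The slopes were above 0 for 29 of 34, with a median of 0.29 against -0.01 over all genes. That median was 0.15 without B16F10 replicate 3 (23 of 34 above 0), 0.11 with the melanocytic score as a covariate (21 of 34) and 0.10 with the leading number of the names in place of the lane (22 of 34), a fit chosen after seeing the data. Other settings raised the median. It was 0.90 without the 3 libraries of highest score (29 of 34 above 0). It was 0.54 without the libraries rich in Rn45s and 0.49 without B16F10 replicate 5 (33 of 34 in both).

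Cxcl9 had the steepest slope, 0.91 with a standard error of 0.42 (adjusted p = 0.251, limma). It measured 30.8, 9.50 and 11.2 CPM in the 3 libraries rich in endothelial RNA, but the highest value, 47.0 CPM, came from B16F10 replicate 6. Ifi44, a GTP-binding protein that limits viral replication, measured 13.3, 7.41 and 24.0 CPM in those 3 libraries and 1.68 to 14.1 CPM in the other 9. Its slope was 0.83 with a standard error of 0.26 (adjusted p = 0.108, limma). Oasl2, an OAS-like protein, measured 21.3, 15.8 and 26.4 CPM in the 3 libraries and 3.79 to 19.1 CPM in the others, with a slope of 0.70 and a standard error of 0.22 (adjusted p = 0.101, limma). Iigp1 and Gbp3 had slopes of 0.64 and 0.54 with standard errors of 0.47 and 0.28. At the other end lay Cxcl10 at -0.29, Rsad2 at -0.12 and Ifi27 at -0.11, with adjusted p of 0.422 to 0.765 by limma. Cxcl10 measured 20.6, 9.04 and 10.7 CPM in the 3 libraries rich in endothelial RNA, of which 9.04 CPM was the lowest of all 12 libraries, and 10.3 to 48.1 CPM in the other 9.

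**Figure D3:**
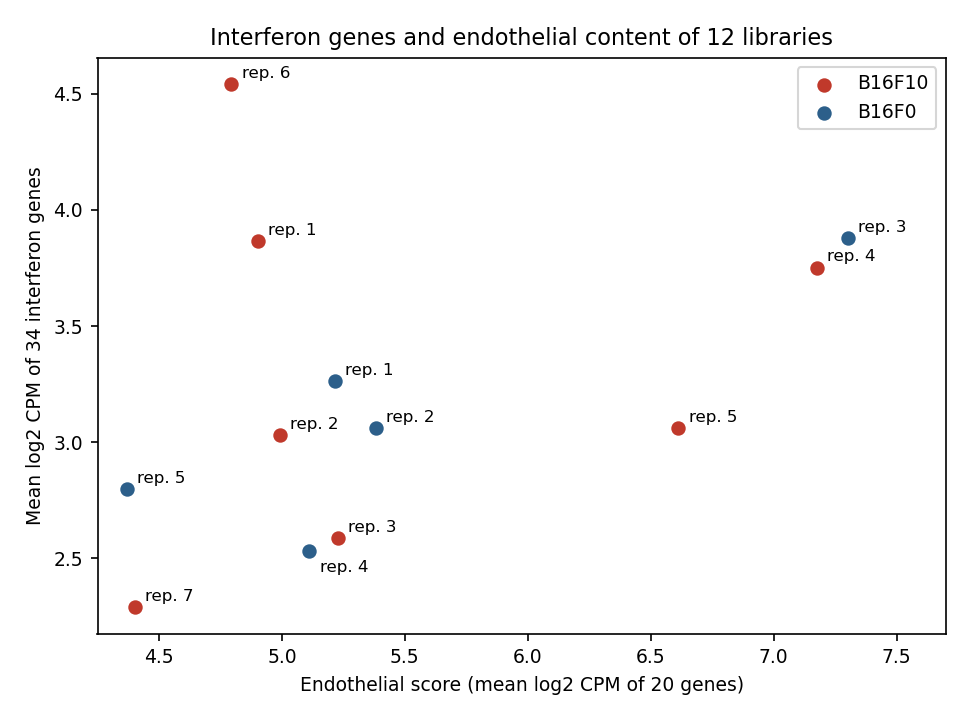
Mean log2 CPM of the 34 interferon genes (vertical axis) against the endothelial score (horizontal axis) for 7 B16F10 libraries (red) and 5 B16F0 libraries (blue). The highest and the lowest mean, 4.54 and 2.29 in B16F10 replicates 6 and 7, both belong to libraries of low endothelial score, and the 3 libraries at the right lie between 3.06 and 3.88.

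The count of genes that followed changed when single libraries were left out. Each library was left out in turn, and 0 of 34 followed in every case except those of B16F10 replicates 5 and 6. Replicate 6 held the highest level of 21 of these same genes at a low endothelial score. Its removal is therefore not an independent test of them. Without B16F10 replicate 6, 5 of 34 genes followed the endothelial score, where 3.61% of all genes did. They were Cxcl9 with a slope of 1.08 (adjusted p = 0.0250), Ifi44 with 0.92 (adjusted p = 0.0244), Oasl2 with 0.78 (adjusted p = 0.00898), Gbp3 with 0.65 (adjusted p = 0.0479) and Rtp4, a chaperone of membrane receptors, with 0.60 (adjusted p = 0.0387), all by limma. The median slope of the 34 was then 0.38. Without B16F10 replicate 5, 3 followed (Ifi44, Mx2 and Rtp4), where 5.97% of all genes did. Without the 3 libraries of highest score, 0 of 34 and 0 of all genes followed, so no gene of the table passed on the remaining 9 libraries.

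**Figure D4:**
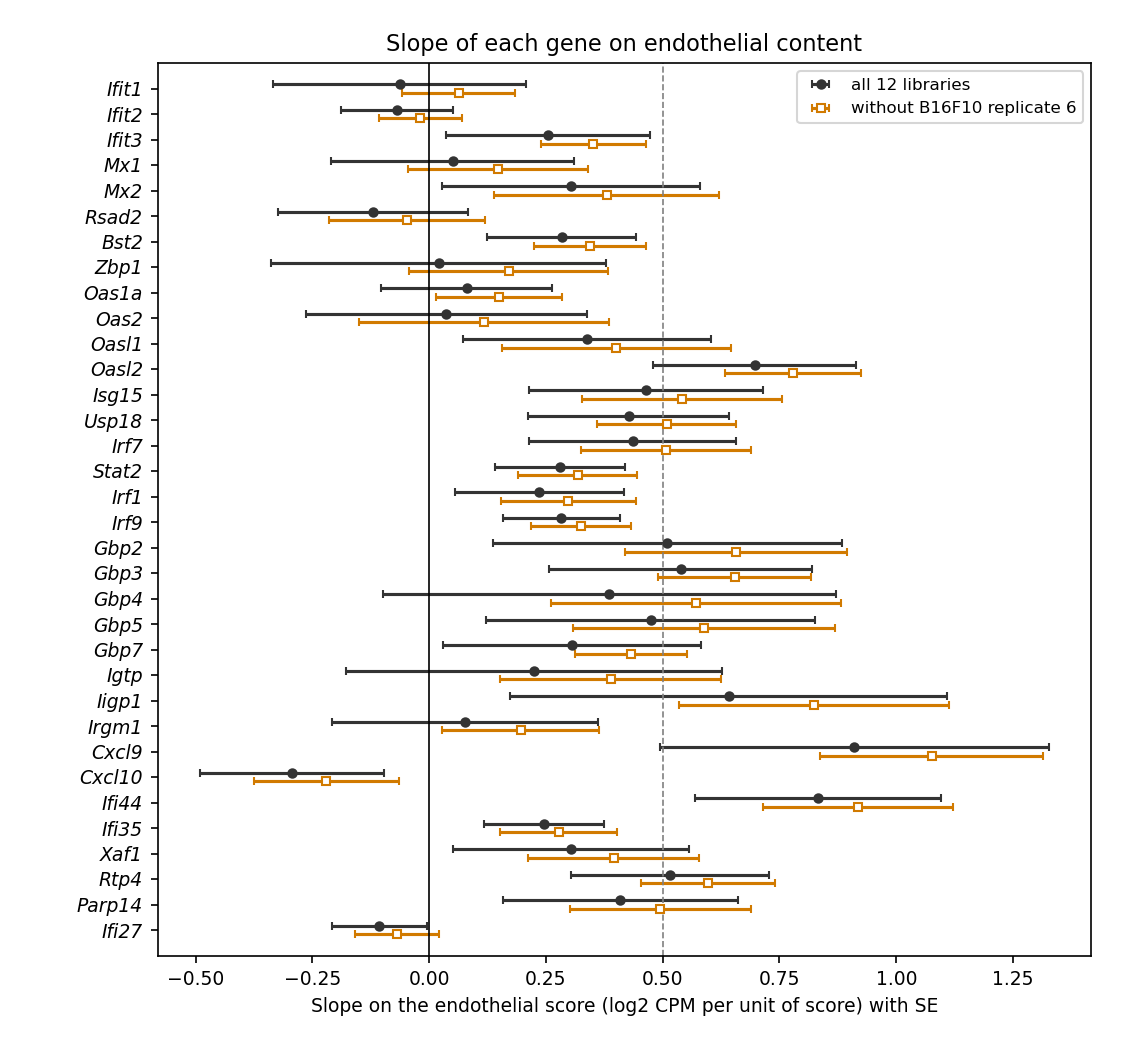
Slope of each gene on the endothelial score, in log2 CPM per unit of score, with bars of 1 standard error, over all 12 libraries (dark circles) and without B16F10 replicate 6 (open squares); the dashed line marks a slope of 0.5. Without that library, which held the highest level of 21 of the 34 genes, most bars are shorter. Cxcl9, Ifi44, Oasl2, Gbp3 and Rtp4 are the genes that then passed the rule.

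For leukocyte content few genes passed the same rule over the 12 libraries. The leukocyte score was 2.05 ± 0.84 in B16F10 and 2.03 ± 0.73 in B16F0 (SD, n = 7 and 5, exact permutation p = 0.971, two-sided), and only 3 genes of the whole table followed it (0.0222%), 1 of them from the 16 markers themselves. None of the 34 interferon genes followed it by limma, nor by limma-voom or edgeR's test of the slope, and at an unadjusted p under 0.05 only Oasl1 had a slope above 0. The median slope was 0.32, with 26 of 34 above 0, against -0.02 over all genes. The steepest slopes were those of Oasl1, a translational repressor of Irf7, at 0.95, Zbp1 at 0.88 and Gbp2 at 0.64, and the lowest those of Mx2 at -0.43 and Ifi44 at -0.39. Oasl1 measured 0.303 CPM in B16F10 replicate 7, the library poorest in leukocyte markers, and 1.01 to 2.51 CPM in the other 11. Zbp1 was at 0.531 CPM in that library and at 9.17 CPM in B16F10 replicate 6. Without B16F10 replicate 7 the median slope of the 34 genes was -0.34, and 0 followed, while 7.36% of all genes did. Over the alternatives this median ran in both directions. The lowest was -0.47, with the replicate block in place of the lane (12 of 34 above 0). In that fit B16F10 replicates 6 and 7 stand alone in their blocks, and the replicate numbers do not pair the samples. The highest median was 1.09, without the 3 libraries of highest endothelial score (34 of 34). With the replicate block in place of the lane, the slope of Mx2 was -2.66 (adjusted p = 0.0335, limma). Slopes on the melanocytic score were fitted by limma in the same way as the main fit. Their median was -1.55 over the 34 genes, against -0.008 over all genes. At an adjusted p below 0.05 in either direction, with no minimum slope, 2 of the 34 passed, beside 4425 of the 13534 genes. They were Stat2 at -1.56 (adjusted p = 0.0151, limma) and Parp14 at -2.48 (adjusted p = 0.0320, limma).

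Further genes of the pathway were taken from 6 lists of ligands, receptors with their JAK-STAT carriers, other interferon regulatory factors, inhibitors, nucleic acid sensors and further interferon-stimulated genes. Of their 119 symbols 87 were tested. None was called higher in B16F10 by edgeR, where 1.3% of all tested genes were. Called lower were 2 (2.30%), where 1.47% of all tested genes were (2.77% in either direction). At an unadjusted p under 0.05 there were 2 higher and 11 lower of the 87, beside the 7.13% and 7.71% of all tested genes given above. Of 21 interferon ligand symbols only Ifnk, the interferon of keratinocytes, could be tested, and Ifna5 had no count. The other 19 reached at most 0.962 CPM in any library, and Ifng gave 13 counts in total over 5 libraries.

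The first of the 2 genes that fell was Mb21d1, now called Cgas, the sensor of cytosolic DNA that makes the messenger cGAMP. It measured 23.7, 26.9, 26.2, 29.4 and 31.7 CPM in B16F0 replicates 1 to 5 and 14.4, 16.8, 12.3, 12.0, 12.6, 17.5 and 13.95 CPM in B16F10 replicates 1 to 7. Every B16F10 library lay below every B16F0 library, as was the case for 1.46% of all tested genes. The log2 fold change was -0.98 with a standard error of 0.14 (adjusted p = 0.00192, edgeR), and the lane differences were -1.12, -0.60 and -1.06. The second was Irf4 (chromosome 13, 30749226 to 30766976), a regulatory factor of lymphoid cells that also acts in pigment cells. It measured 13.3, 14.0, 8.61, 10.5 and 6.81 CPM in B16F0 and 4.65, 4.0, 1.57, 2.61, 0.811, 3.25 and 5.31 CPM in B16F10, again without overlap. Its log2 fold change was -1.83 with a standard error of 0.37 (adjusted p = 0.0177, edgeR). The call was lost with the melanocytic score as a covariate (adjusted p = 0.0676), without lane 2 (adjusted p = 0.104) and without any one of B16F10 replicate 4 (0.0528) and B16F0 replicates 1 (0.0570) and 4 (0.0737).

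**Figure D5:**
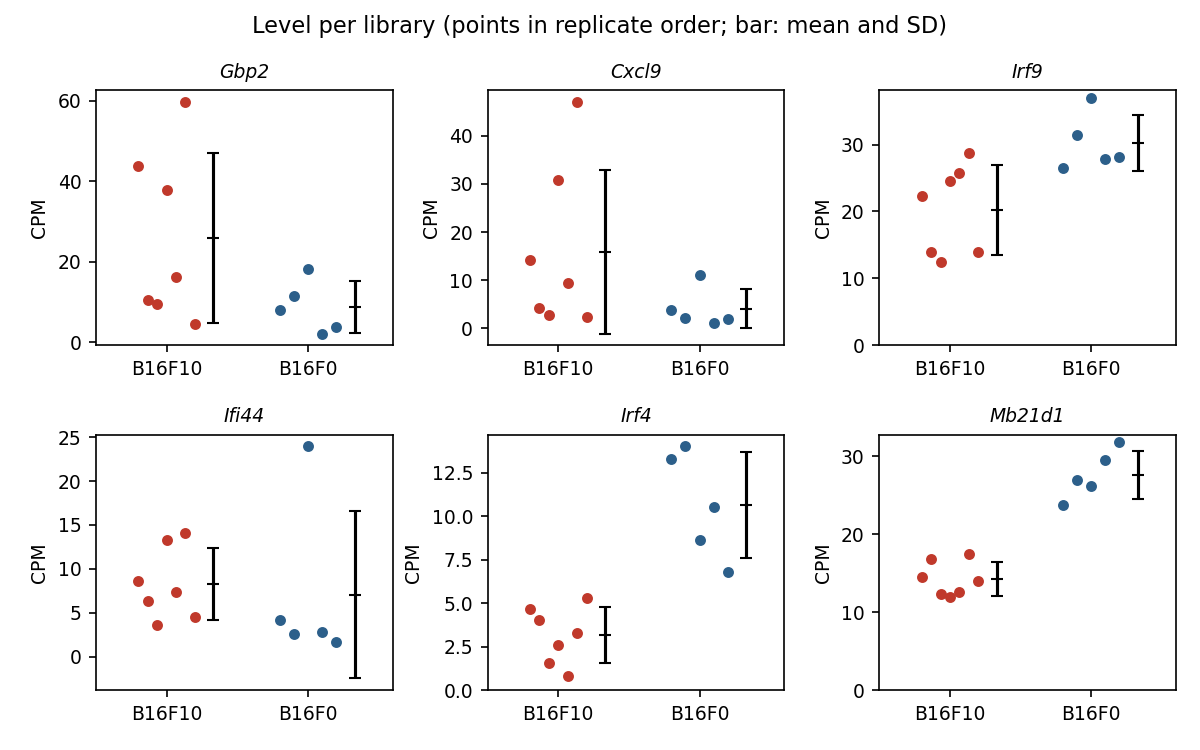
CPM in each library (points, in the order of the replicate numbers) with mean and SD (bars) for 4 of the interferon response genes, for Irf4 and for Mb21d1, in B16F10 (red) and B16F0 (blue). Gbp2, Cxcl9, Irf9 and Ifi44 overlap between the lines, while Irf4 and Mb21d1 do not.

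The rest of the pathway did not pass the test. Among receptors and carriers, Il10rb, a shared chain of the interferon lambda receptor, had a log2 fold change of -0.54 (adjusted p = 0.111, edgeR), Ifnar1 -0.27 and Stat3 -0.26. Of the regulatory factors, Irf3, which starts type I interferon production, had 0.52 (adjusted p = 0.175, edgeR) and Irf5 0.64. The phosphatase Ptpn6, an inhibitor of JAK signalling, had -0.87 (adjusted p = 0.0860, edgeR), and the inhibitors Pias1 and Ptpn2 had -0.17 and -0.06. Tbk1, the kinase downstream of Mb21d1, had -0.44 (adjusted p = 0.103, edgeR) and Eif2ak2, or PKR, -0.38. Of 50 further stimulated genes, the smallest p values were those of Znfx1, Trim25 and Lgals3bp, with log2 fold changes of -0.56, -0.56 and -0.55 (adjusted p = 0.0968, 0.103 and 0.136, edgeR). On the endothelial score, 4 of the 87 pathway genes followed by the same rule, where 3.6% of all genes did. They are named here after their values were seen: Slfn5, with a slope of 0.88 (adjusted p = 0.000204), Sp100 with 0.73 (adjusted p = 0.00697), Gbp9 with 0.97 (adjusted p = 0.0249) and Irf8 with 0.62 (adjusted p = 0.0372), all by limma. Slfn5 measured 246, 145 and 272 CPM in the 3 libraries rich in endothelial RNA and 38.8 to 79.7 CPM in the other 9, without overlap.

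Compared per kilobase of exon, the 35 genes spanned a wide range of levels over the 12 libraries. After Bst2 at 29.7 came Ifi27 at 26.2, Ifit2 at 18.2 and Rsad2 at 13.2 CPM per kilobase. Gbp2 reached 7.47, and at the low end stood Oas2 at 0.677, Zbp1 at 0.650, Oasl1 at 0.587, Gbp5 at 0.465 and Cxcl11 at 0.083 CPM per kilobase. Of the genes with the highest level per length, Ifit2 and Ifi27 varied least between libraries, at 2.69-fold and 1.91-fold from lowest to highest. Ifit3 and Oas1a have near-identical copies, so their counts may hold reads of those copies.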

How the data were processed

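The table that the authors deposited gives raw counts of reads for each symbol in 12 libraries of ribosome-bound mRNA, made with a ScriptSeq kit, per the labels' protocols. Per the submitters' processing notes, the build was mm10 and the tools included STAR 2.2.1, cutadapt 1.16, R 3.3.2, featureCounts 1.6.0 and edgeR. Neither the annotation nor the counting's strand setting is given there. Deposited tables of normalized values and of fold changes were not used. Groups came from sample titles and the lane from library names in the labels.

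Here, genes passing filterByExpr (minimum count 10, edgeR 4.0.16, R 4.3.3) were scaled by TMM, which also gave the CPM, and tested with glmQLFTest with lane and line in the model, with Benjamini-Hochberg adjustment over all 13534 genes. The biological coefficient of variation was 0.318. Slopes used limma 3.58.1 on log2 CPM with a prior count of 2. DESeq2 1.42.0 and limma-voom were alternatives. Cell scores were compared by exact permutation of the line labels (792 arrangements, or 180 that keep the lanes). B16F10 replicate 1, the shallowest, gives the least precise values for genes at low levels. No pair of libraries of a line agreed within sampling noise (chi-square per degree of freedom at least 8.30). Coordinates and exon lengths are from GENCODE M21. The tests were checked on simulated counts.

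The genes and lists were chosen with earlier results of these data known. Values per library are given for the 3 genes of smallest p in each direction, the extreme slopes and the most abundant gene of each role, and the 3 of smallest p of each pathway list are named. The values of 1 further pathway gene are not reported here.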

Additional observations from a re-analysis of the deposited data

Results flagged for a closer look

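In 68 sets of log2 CPM values (34 genes in 2 lines), 2 held a library far from the others of its line, where chance alone marks about 1 in 20. Gaps on the CPM scale itself were not tested. Oasl1 was at 0.303 CPM in B16F10 replicate 7, against 1.10 to 2.51 CPM in the other 6 B16F10 libraries. For Rtp4 the value of 16.7 CPM in B16F0 replicate 3 stood out from the other 4 libraries of that line, at 4.82 to 6.82 CPM.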

How the results depend on the processing

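The count of interferon response genes called by tumour line was 0 under all 29 alternatives, and the 3 genes of smallest p in each direction kept their direction under each, while the count over all genes ran from 58 to 852. The replicate numbers do not pair the samples: deviations of same-numbered libraries correlated at -0.27, -0.27, -0.24, -0.29 and 0.32. With the replicate block in place of the lane, 1 pathway gene was called in place of 2, and 58 of all genes in place of 375. Mb21d1 was lost (adjusted p = 0.0992, edgeR). The endothelial slope of Rsad2 was then 0.16 in place of -0.12 and the leukocyte slope of Gbp2 -0.28 in place of 0.64. The median log2 fold change of the 34 genes was -0.07 in place of 0.27. Calls of pathway genes are given here with those of all genes in brackets, 2 (375) in the main fit. They were 7 (852) with DESeq2, 5 (669) with limma-voom and 4 (643) at a false discovery rate of 0.1. With the endothelial score as a covariate they were 4 (516), and with the melanocytic score 4 (601). They were 4 (456) without the 3 richest in endothelial RNA and 1 (177) without lane 2. With single libraries left out they ran from 1 to 4 (203 to 446). Without the lane term, 1 interferon gene followed the endothelial score (Oasl2), where 3.8% of all genes did. When the libraries rich in Rn45s were left out, 2 followed (Ifi44 and Rtp4), where 7.54% of all genes did. With single libraries left out, 0 to 5 followed, where 2.42% to 5.97% of all genes did. Without the libraries rich in Rn45s the endothelial slopes of Rsad2 and Cxcl10 were 0.14 and 0.066, and that of Cxcl10 was 0.82 without the 3 richest in endothelial RNA. With single libraries left out, these slopes ran from -0.23 to 0.17 for Rsad2 and from -0.42 to 0.10 for Cxcl10, above 0 without B16F10 replicate 5. The leukocyte slope of Ifi44 was 0.071 without the lane term, 0.026 with the melanocytic score as a covariate, 0.69 without the 3 richest in endothelial RNA and -1.40 to 0.16 with single libraries left out, above 0 without B16F0 replicate 3. That of Gbp2 ran from -0.21 to 1.18, below 0 without B16F10 replicate 7, and that of Mx2 was 0.094 with limma-voom weights and 0.58 without the 3 richest in endothelial RNA. A further alternative, chosen after seeing the data, put the leading number of the library names in place of the lane. The 5 libraries without a number formed one level in it. Here 0 interferon genes were called or followed either score. Pathway genes called were 4 (Irf4, Mb21d1, Ptpn6 and Znfx1), beside 630 of all genes. The leukocyte slopes of Ifi44 and Mx2 were then 0.58 and 0.23. The cause of these differences was not tested.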
